A study of Homo sapiens with 6 samples.

Results

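The insulin-like growth factor (IGF) axis was examined in the RNA-seq of MDA-MB-231 cells through 9 genes, which are the IGF-binding proteins IGFBP1 to IGFBP7 and the receptors IGF1R and IGF2R. The genes were chosen by family membership from the 23228 gene symbols of the count tables, and the family was proposed with results of these samples in view, among them the lower level of IGFBP3 in PELP1-KD cells. The difference between PELP1-KD and control cells is therefore given for these 9 genes as a description, without a p-value. MDA-MB-231 is a human line established from a triple-negative breast cancer (TNBC), a cancer without estrogen receptor, progesterone receptor or amplified HER2. The control group held 3 replicates of cells stably expressing a control non-targeted shRNA, and the PELP1-KD group held 3 replicates of cells stably expressing PELP1 shRNA. Both groups were lentivirally transduced, selected in puromycin and grown in RPMI medium with serum. A single PELP1 shRNA sequence was used, and the labels do not say whether the replicates of a group came from separate cultures, so the spread between replicates may be technical.

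IGF1 and IGF2 are secreted growth factors that act through IGF1R, a receptor tyrosine kinase that feeds the PI3K-AKT and MAP kinase pathways. IGF2R, also known as the cation-independent mannose 6-phosphate receptor, takes up IGF2 for degradation and carries newly made lysosomal enzymes, and it has no kinase. IGFBP1 to IGFBP6 bind IGFs with high affinity outside the cell, where they prolong the life of the ligand and withhold it from the receptor until proteases cleave them, whereas IGFBP7 binds IGFs weakly. In breast cancer cells, IGFBP3 and several relatives also have actions that do not need IGF.

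Between 17304864 and 23132102 reads per library were counted on genes, and 3 counts, taken as the floor of detection, corresponded to between 0.1275 and 0.1774 CPM, a read count corrected for depth and composition. In the targeted gene PELP1, the control libraries had 57.2, 56.1 and 60.2 CPM, and the PELP1-KD libraries had 28.6, 29.9 and 30.3 CPM. The log2FC of PELP1, which is PELP1-KD against control throughout, was -0.97 (SE 0.055, adjusted p = 1.48e-11 by edgeR's quasi-likelihood test), where SE is the standard error. The 5 markers of a mesenchymal TNBC line summed to between 5941 and 6025 CPM in control and between 5010 and 5074 CPM in PELP1-KD libraries, with VIM the highest. Each of the 5 was lower in every PELP1-KD library than in any control library, as were 28.0% of all tested genes. The largest difference was in CD44, with a mean of 1209 CPM in control and 828 CPM in PELP1-KD libraries (log2FC -0.545). The 6 luminal markers summed to between 17.2 and 18.2 CPM in control and between 17.2 and 19.5 CPM in PELP1-KD libraries, mostly EPCAM and GATA3, and FOXA1 was lower, with 11, 26 and 20 reads in control against 7, 0 and 5 (log2FC -2.37). The 6 fibroblast markers summed to between 19.4 and 24.1 CPM in control and between 61.9 and 67.1 CPM in PELP1-KD libraries, a difference carried by PDGFRB and COL1A1, with DCN at 0 in every library and LUM at 0.202 CPM or less on average in each group. The 4 endothelial markers summed to between 2.65 and 3.48 CPM in control and between 2.05 and 2.42 CPM in PELP1-KD libraries, with KDR lower (log2FC -1.03) and VWF higher (log2FC 2.56). The 4 leukocyte markers summed to between 117 and 119.5 CPM in control and between 90.3 and 97.0 CPM in PELP1-KD libraries, nearly all of it CD68, with PTPRC at 0. The part of these marker differences in the results below was not tested, and in bulk RNA fewer cells of a kind and less RNA per cell cannot be told apart.

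Promoter windows of the members were taken from RefSeq on GRCh38.p14, from 250 bases before to 50 bases after the annotated start. By symbol, 7 of the 9 genes were matched, all but IGFBP1 and IGFBP7. The windows of IGFBP3, which had the larger number of reads of the 2 strongly lower members, and of IGFBP4, the most highly expressed member, are shown. That of IGFBP3 lies at chr7:45921223-45921522 on the minus strand and that of IGFBP4 at chr17:40443200-40443499 on the plus strand. Capitals mark each match, on either strand, to the GC box letters GGGCGG or to the TATA box letters TATAAA.
IGFBP3: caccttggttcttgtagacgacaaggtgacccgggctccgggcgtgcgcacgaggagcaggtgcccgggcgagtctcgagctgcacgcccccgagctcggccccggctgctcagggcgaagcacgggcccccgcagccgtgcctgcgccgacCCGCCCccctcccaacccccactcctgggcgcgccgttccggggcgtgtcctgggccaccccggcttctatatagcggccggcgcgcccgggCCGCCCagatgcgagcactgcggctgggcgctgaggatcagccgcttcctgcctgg
IGFBP4: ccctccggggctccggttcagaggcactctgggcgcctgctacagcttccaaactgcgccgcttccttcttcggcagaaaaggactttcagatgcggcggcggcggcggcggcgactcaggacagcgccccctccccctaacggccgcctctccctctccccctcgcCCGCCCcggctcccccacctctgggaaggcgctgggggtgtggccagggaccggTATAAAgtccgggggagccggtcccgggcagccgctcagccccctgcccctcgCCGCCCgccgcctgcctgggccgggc

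Both windows were rich in G and C, with 74.7% G+C and 36 CpG dinucleotides in IGFBP3 and 74.0% and 30 in IGFBP4. A GC box began 98 and 6 bases before the start of IGFBP3, and the letters TATAAA began 29 bases before the start of IGFBP4. Of the 7 genes with a window, 6 held a GC box (GGGCGG) in at least 1 window, as did 45.0% of the 35116 promoters of the same length. The 7 genes had 9 windows in all, so members are counted here by gene and all promoters by window. TATAAA was found in IGFBP4 alone of the 7, against 11.5% of all promoters. Only these exact letters were searched for, so similar letters, such as TATATA in the IGFBP3 window, were not counted. The E-box letters CACGTG, which Myc and related factors bind, were found in IGF2R alone, in 3 places, against 7.26% of all promoters. The AP-1 letters TGANTCA were found in 0 of the 7 genes, against 7.71% of all promoters. These matches describe letters in a window and were not tied to any measurement of binding.

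Of the 7 binding proteins, IGFBP4 and IGFBP7 made up most of the mRNA, and IGFBP1 and IGFBP3 were the members with the largest differences between groups. Levels were compared between genes as RPKM, the CPM divided by the summed exon length in kilobases. In control cells the order of mean RPKM was IGFBP4 at 257 ± 5.72 (SD, n = 3), IGFBP7 at 117 ± 8.66, IGFBP3 at 18.3 ± 0.552, IGFBP6 at 16.1 ± 1.74, IGF2R at 12.7 ± 0.169, IGFBP1 at 10.4 ± 0.529, IGF1R at 2.28 ± 0.064 and IGFBP2 at 0.0627 ± 0.0345. Neighbors in this order had ranges that did not overlap, other than IGFBP3 and IGFBP6. In PELP1-KD cells IGFBP3 moved from the third to the fifth place, behind IGFBP6 and IGF2R, and the other members kept their relative order. In PELP1-KD cells no neighbors in the order overlapped. The exon length of IGFBP3 depends on the transcripts counted, and with the length of the longest transcript its RPKM was 34.7 ± 1.05 in control and 11.7 ± 0.372 in PELP1-KD cells (SD, n = 3). With that length, IGFBP3 and IGFBP6 were apart in control cells, and in PELP1-KD cells IGF2R overlapped IGFBP6 and IGFBP1 overlapped IGF1R.

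**Figure D1:**
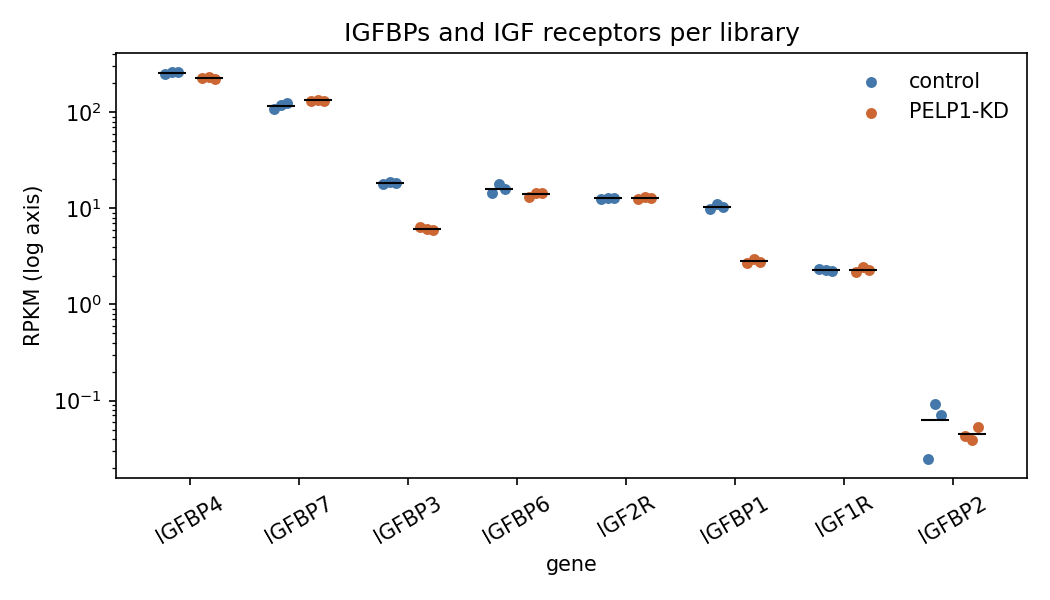
Level of each gene as RPKM on a log axis in 3 control (blue) and 3 PELP1-KD (orange) libraries, with a black line at each group's mean; IGFBP5, with at most 2 counts in a library, is left out. IGFBP3 and IGFBP1 are the genes whose PELP1-KD points sit clearly below the control points, while IGF1R and IGF2R sit at the same height in both groups.

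IGFBP3 is the main carrier of IGFs in serum, where it forms a ternary complex with the acid-labile subunit. The 3 control libraries held 1370, 1955 and 1491 of its reads, and the 3 PELP1-KD libraries held 568, 598 and 644, always listed here in the order of the replicate numbers. As CPM, the control libraries had 81.0, 86.0 and 84.0, against 29.1, 28.0 and 27.4 after knockdown. Every PELP1-KD library lay far below every control library, although the libraries differed in depth. The mean of the control group was 83.7 CPM ± 2.53 and that of the PELP1-KD group 28.2 CPM ± 0.898 (SD, n = 3 each), a level 66.3% lower, and the log2FC was -1.57 (SE 0.052). Of the 12796 genes with enough counts to be tested, 58 had a lower log2FC.

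IGFBP1 is a small binding protein that liver and decidua secrete and that insulin represses. It gave 278, 413 and 304 reads in the control and 88, 104 and 108 reads in the PELP1-KD libraries. Scaled to CPM, the control libraries had 16.4, 18.2 and 17.1 and the PELP1-KD libraries 4.52, 4.88 and 4.59. Again no PELP1-KD library reached the control range. The group means were 17.2 CPM ± 0.875 in control and 4.66 CPM ± 0.19 after knockdown (SD, n = 3 each), a level 73.0% lower, and the log2FC was -1.89 (SE 0.097). A lower log2FC was found in 36 of the 12796 tested genes. IGFBP1 and IGFBP3 are neighbors on chromosome 7, where they are transcribed toward each other.

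IGFBP4, which mostly inhibits IGF action until the protease PAPPA cleaves it, had the most reads of the family. It was measured at 550, 571 and 573 CPM in the control and 500, 517 and 491 CPM in the PELP1-KD libraries. The PELP1-KD libraries were below the control libraries, but by a small margin. The group means were 565 CPM ± 12.6 in control and 503 CPM ± 13.6 after knockdown (SD, n = 3 each), and the log2FC was -0.17 (SE 0.03). IGFBP6, which prefers IGF2 over IGF1, had 19.4, 24.1 and 21.5 CPM in the control and 17.9, 19.4 and 19.5 CPM in the PELP1-KD libraries. Here the groups overlapped, because control replicate 1 fell within the PELP1-KD range. Its log2FC was -0.20 (SE 0.081).

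IGFBP7, a secreted protein found in vessel walls and stroma, was the only one of the 7 tested members to be higher in PELP1-KD cells without overlap of the groups. It had 208, 231 and 241 CPM in the control and 254, 261 and 256 CPM in the PELP1-KD libraries. The lowest PELP1-KD library was above the highest control library, and the control libraries were the more scattered. Its group means were 227 CPM ± 16.7 in control and 257 CPM ± 3.44 after knockdown (SD, n = 3 each), and the log2FC was 0.18 (SE 0.042). Exons of POLR2B and of IGFBP7-AS1 on the opposite strand overlap those of IGFBP7 in GENCODE. The strand setting of the counting is not given in the sources used here. IGFBP7-AS1 had no count of its own, and whether its reads added to those of IGFBP7 was not tested. POLR2B had 348 CPM ± 7.84 in control and 346 CPM ± 8.06 in PELP1-KD cells (SD, n = 3), a log2FC of -0.005.

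The other 2 binding proteins were at or near the floor of detection. IGFBP2, a binding protein of brain and of many tumors, had 2, 10 and 6 reads in the control and 4, 4 and 6 reads in the PELP1-KD libraries. IGFBP5, which binds bone and matrix, had 0, 2 and 1 reads in the control libraries and 0 in each PELP1-KD replicate. Neither passed the filter on low counts that was applied before testing, so no log2FC is given for them.

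The 2 receptors differed little between groups. IGF1R had 32.7, 31.7 and 30.9 CPM in the control and 30.5, 34.0 and 31.5 CPM in the PELP1-KD libraries. IGF2R had 224, 230 and 226 CPM in the control and 222, 236 and 229 CPM in the PELP1-KD libraries. In both receptors the groups overlapped, and the PELP1-KD libraries spanned the whole control range of IGF1R. The log2FC was 0.011 (SE 0.061) for IGF1R and 0.015 (SE 0.034) for IGF2R. In RPKM, the level of IGF2R was 5.58 ± 0.201 times that of IGF1R in control and 5.60 ± 0.146 times in PELP1-KD cells (SD, n = 3).

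**Figure D2:**
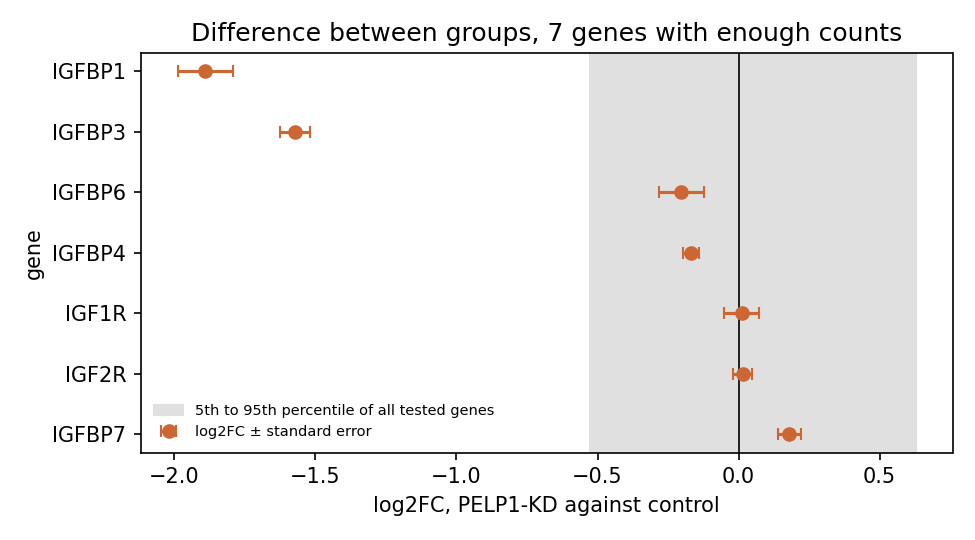
The log2FC of the 7 members with enough counts, as points with bars of 1 standard error, against a gray band from the 5th to the 95th percentile of all 12796 tested genes (-0.53 to 0.63). IGFBP1 at -1.89 and IGFBP3 at -1.57 lie outside the band, and the other 5 lie inside it.

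Of the 9 members, 7 passed the filter on low counts. At an adjusted p-value below 0.05, 5 of these 7 were called, against 46.9% of all tested genes. The calls were 4 toward a lower level, against 24.2% of all tested genes, and 1 toward a higher level after knockdown, against 22.7%. These shares depend on the scaling. With library totals in place of TMM factors, 3 members were called lower and 1 higher, against 18.9% and 29.8% of all tested genes, so that lower genes made up 38.8% of all calls rather than 51.7%. With DESeq2, which tested 8 members, 3 were called lower, against 19.4% of all tested genes. The lower members also numbered 3 of 7 when any 1 replicate other than control replicate 1 was left out. In those 5 fits between 21.2% and 23% of all tested genes were called lower. Without control replicate 1 the lower members numbered 4 of 7, against 23.7%. With a log2FC below -1 as well, 2 members were called, IGFBP1 and IGFBP3, against 1.34% of all tested genes. With a log2FC above 1, 0 were called, against 1.90%. The groups did not overlap with PELP1-KD lower in 3 members and higher in 1, where 28.0% and 27.0% of all tested genes were in these classes. The median log2FC was -0.17 over the 7 members and 0.0014 over all tested genes. These counts come from the comparison that led to the choice of the family and are a description of it.

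The make-up of the binding-protein mRNA was described by the share of each gene in the summed RPKM of IGFBP1 to IGFBP7. This sum was 419 ± 16.4 in control and 384 ± 8.08 in PELP1-KD cells (SD, n = 3). IGFBP3 had a share of 4.43%, 4.41% and 4.27% in the control and 1.67%, 1.56% and 1.58% in the PELP1-KD libraries. The share of IGFBP1 was 2.49% ± 0.083 in control and 0.733% ± 0.016 in PELP1-KD cells (SD, n = 3). IGFBP7 held 27.0%, 28.0% and 29.0% in the control and 34.5%, 34.3% and 35.0% in the PELP1-KD libraries. Both IGFBP3 and IGFBP1 thus had a smaller share, and IGFBP7 a larger share, in every PELP1-KD library than in any control library. IGFBP4 remained the most abundant, at 61.3% ± 1.07 in control and 59.4% ± 0.443 in PELP1-KD cells (SD, n = 3). For IGFBP6 the shares overlapped, at 3.84% ± 0.311 and 3.65% ± 0.17 (SD, n = 3). The ratio of IGFBP4 to IGFBP3 in RPKM was 14.0 ± 0.203 in control and 37.1 ± 1.37 in PELP1-KD cells (SD, n = 3).

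**Figure D3:**
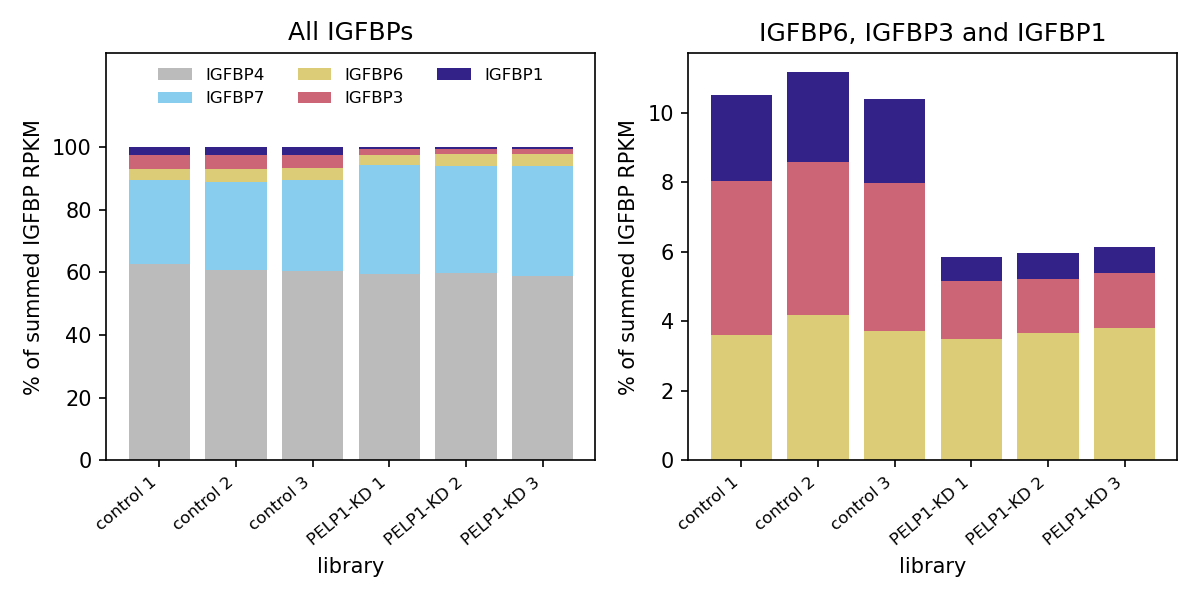
Share of each binding protein in the summed RPKM of IGFBP1 to IGFBP7, in percent, for each library. The left panel stacks the 5 genes that passed the filter on low counts, and the right panel enlarges IGFBP6, IGFBP3 and IGFBP1. The IGFBP3 and IGFBP1 segments are shorter in all 3 PELP1-KD libraries, and the IGFBP7 segment is taller.

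The genes whose profile was most like that of IGFBP3 over the 6 libraries, by Pearson's r of log2 CPM among 12078 other genes of at least 1 CPM on average, were TMCO7 (0.9991), PTDSS1 (0.9990) and GORAB (0.9990). For IGFBP1 they were RGMB (0.9993), SLC7A1 (0.9992) and SLCO4A1 (0.9991). IGFBP1 and IGFBP3 correlated with each other at 0.9983. The 6 points fall into 2 groups of 3, so that a gene lower in every PELP1-KD library by much more than its spread has a high value, and 1216 genes had an r above 0.95 with IGFBP3 and 1160 with IGFBP1. The log2FC of these genes differed widely, from -0.29 in PTDSS1, a phosphatidylserine synthase, to -3.27 in SLCO4A1, an organic anion transporter.

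The other genes of the IGF axis were taken from 9 lists by role, with 83 genes in all, of which 64 were tested. At an adjusted p-value below 0.05 by edgeR's quasi-likelihood test, 23 of the 64 (35.9%) fell and 15 (23.4%) rose after knockdown, against 24.2% and 22.7% of all tested genes, with a median log2FC of -0.03. With library totals 19 fell (29.7%) and 21 rose (32.8%), against 18.9% and 29.8% of all tested genes. Lower genes then made up 47.5% of the calls in the lists and 38.8% of all calls. With TMM factors these shares were 60.5% and 51.7%. Few reads or none were counted on the ligands. IGF1 and INS had 0 reads in every library, and IGF2 had 1, 0 and 2 reads in the control and 0, 1 and 0 reads in the PELP1-KD libraries. A count of 0 allows a level of up to 0.177 CPM in the shallowest library. IGF2 shares exons with the readthrough gene INS-IGF2, which also had 0 reads. Reads that fell on more than 1 gene were counted on none of them, so the counts of IGF2 may understate its level.

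INSR, the insulin receptor, which pairs with IGF1R in hybrid receptors, rose from 30.6 CPM ± 2.09 to 37.9 CPM ± 1.24 (SD, n = 3), a log2FC of 0.31 (adjusted p = 3.64e-04 by edgeR). The adaptors IRS1 and IRS2, which link the receptor to PI3K, did not pass the test, with a log2FC of -0.04 and -0.03. Of the 23 tested genes of proximal signaling, 5 fell (21.7%) and 2 rose (8.7%), where 24.2% and 22.7% of all tested genes did, and the median log2FC was 0.01. With library totals 3 of them fell (13%) and 8 rose (34.8%), where 18.9% and 29.8% of all tested genes did. PIK3R1, a regulatory subunit of PI3K, fell by 0.60 on the log2 scale (SE 0.083, adjusted p = 5.75e-06 by edgeR), and PTPN11, the phosphatase SHP2, fell by 0.24 (adjusted p = 1.11e-06 by edgeR). GRB14, an adaptor that inhibits insulin-type receptors, had 4, 6 and 4 reads in the control and 19, 19 and 17 reads in the PELP1-KD libraries, so its log2FC of 1.78 (adjusted p = 5.66e-04 by edgeR) rests on few reads. SOCS1, a suppressor of cytokine signaling, had a log2FC of -0.52 (adjusted p = 0.0461 by edgeR), and the groups overlapped. It no longer passed 0.05 when DESeq2, voom or library totals were used, or without any of 5 of the 6 replicates, with adjusted p-values from 0.0586 to 0.276, and its log2FC was -0.30 without control replicate 3. The 6 genes of IGF1R turnover held 3 that fell and 1 that rose, where 46.9% of all tested genes were called, with MDM2, a ubiquitin ligase, at -0.32, CBL, another, at -0.17, NEDD4 at -0.12 and ARRB2, a beta-arrestin, at 0.63. NEDD4 did not pass with library totals (adjusted p = 0.153), without control replicate 1 (0.068), or without PELP1-KD replicate 2 (0.0672) or 3 (0.115).

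The proteases that cleave binding proteins and the inhibitors of these proteases were mostly lower in PELP1-KD cells. With TMM factors, 9 of 12 tested genes fell and 2 rose, with a median log2FC of -0.43, where 24.2% of all tested genes fell and 22.7% rose. With library totals 9 again fell and 2 rose, where 18.9% of all tested genes fell and 29.8% rose. MMP1, HTRA1 and STC1 were already known to be lower in these samples when the list was written, so its count is not independent evidence of a direction. MMP1, a collagenase that also cleaves IGFBP3, fell from 798 CPM ± 26.0 to 189 CPM ± 1.83 (SD, n = 3). HTRA1, a serine protease that cleaves IGFBP5, had 9.52, 7.17 and 8.39 CPM in the control and 2.00, 1.92 and 2.21 CPM in the PELP1-KD libraries. Its log2FC was -2.01 (SE 0.149). PAPPA, the protease that releases IGF from IGFBP4, had 5.32, 5.76 and 4.73 CPM in the control and 2.21, 2.20 and 2.55 CPM in the PELP1-KD libraries, a log2FC of -1.19 (SE 0.15, adjusted p = 1.83e-06 by edgeR). The 2 stanniocalcins, which inhibit PAPPA, moved in opposite directions. STC1 fell from 50.5 CPM ± 1.20 to 22.8 CPM ± 1.34, and STC2 rose from 1.16 CPM ± 0.249 to 3.20 CPM ± 0.51 (SD, n = 3), a log2FC of 1.50 (adjusted p = 7.43e-06 by edgeR). BMP1, named after its values were seen, was the called gene that rose beside STC2, with a log2FC of 0.43. PAPPA2 and C1S, also named after their values were seen, were below the filter and went in opposite directions. PAPPA2 had 9, 14 and 8 reads in the control and 1, 0 and 0 reads in the PELP1-KD libraries. C1S had 4, 3 and 4 reads in the control and 11, 14 and 11 reads in the PELP1-KD libraries. In the other list genes below the filter the groups overlapped.

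**Figure D4:**
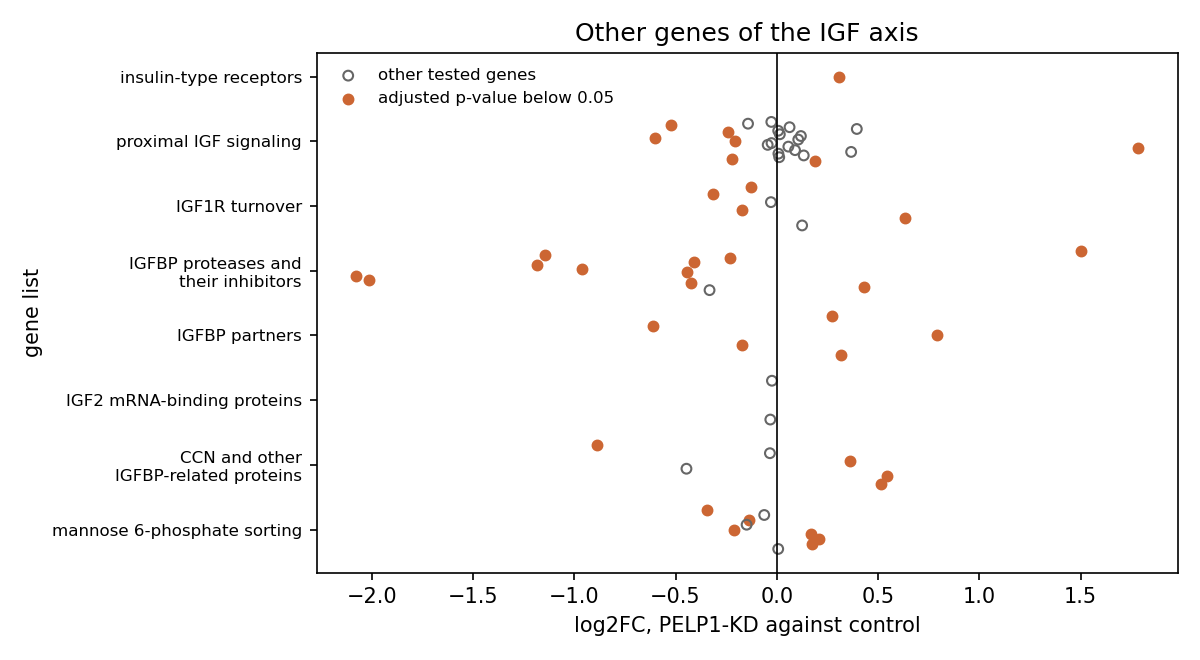
The log2FC, PELP1-KD against control, of the tested genes of each list of the IGF axis; each point is 1 gene, filled where the adjusted p-value from edgeR was below 0.05. Most filled points of the protease list lie left of 0, with MMP1 and HTRA1 near -2, and the IGF2 mRNA-binding proteins lie close to 0.

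Among partners of binding proteins, LRP1, an endocytic receptor that binds IGFBP3, rose from 13.3 CPM ± 0.742 to 23.1 CPM ± 0.717 (SD, n = 3), a log2FC of 0.79 (adjusted p = 3.43e-08 by edgeR). RXRA, a nuclear receptor that binds IGFBP3, fell by 0.61 on the log2 scale (adjusted p = 3.94e-09 by edgeR). TMEM219, described as a receptor of IGFBP3, rose by 0.27, ITGA5, an integrin subunit, rose by 0.32, and its partner ITGB1 fell by 0.17, so that all 5 tested partners passed the test, 3 upward and 2 downward, where 46.9% of all tested genes passed. IGFALS, the acid-labile subunit, had 0 reads in every library. IGF2BP2 and IGF2BP3, which bind the mRNA of IGF2 and are no relatives of the secreted proteins, did not pass the test, with a log2FC of -0.03 and -0.02, and IGF2BP1 was not tested.

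The CCN proteins share a domain with the binding proteins. CYR61 (CCN1) rose from 1731 CPM ± 26.9 to 2526 CPM ± 31.3 (SD, n = 3), CTGF (CCN2) rose by a log2FC of 0.52, and NOV (CCN3) fell from 7.19 CPM ± 1.38 to 3.86 CPM ± 0.168 (SD, n = 3). IGFBPL1, a relative of IGFBP7, rose by a log2FC of 0.36 (adjusted p = 2.64e-04 by edgeR). In all, 3 of the 6 tested genes of this list rose and 1 fell, where 22.7% of all tested genes rose and 24.2% fell, with a median log2FC of 0.16. Of the 9 genes of mannose 6-phosphate sorting, which serve IGF2R as a carrier of lysosomal enzymes, 3 fell and 3 rose, where 46.9% of all tested genes were called, with a median of -0.06. With library totals 2 of the 9 fell and 3 rose, where 18.9% of all tested genes fell and 29.8% rose. The genes called with TMM factors included VPS35, a retromer subunit, at a log2FC of -0.35 (adjusted p = 8.4e-08 by edgeR), GNPTAB, which makes the mannose 6-phosphate tag, at -0.21, and the adaptors GGA2 at 0.21 and GGA1 at 0.17. GGA1 did not pass without PELP1-KD replicate 2 (adjusted p = 0.121).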

How the data were processed

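RNA-seq was done on 3 control and 3 PELP1-KD libraries with single reads of 50 bases. The authors deposited whole-number counts of reads per gene symbol for each replicate, without normalization or pooling. The submitters' processing notes name bcl2fastq, TopHat2, SAMtools, HTSeq and the build hg19; the annotation and strand setting are not given in the sources used here. Between 32.5% and 32.9% of reads in each library aligned to more than 1 place, between 7.64% and 8.2% fell on no gene and up to 0.688% on more than 1 gene; such reads are counted on no gene, and were left out of library sizes.

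From the counts, genes passing filterByExpr (minimum count 10) were scaled by TMM and tested by edgeR 4.0.16 (quasi-likelihood, Benjamini-Hochberg) in R 4.3.3. The standard error is the size of the log2FC over the square root of F; log2 CPM used a prior count of 2. Exon lengths came from GENCODE 29 on GRCh38, a build other than that of the counts, so positions are given only with the RefSeq promoter windows. Reads are not independent molecules, so floors cover counting error alone. Scripts were tested on simulated counts. The alternatives were RLE factors, library totals, DESeq2 1.42.0, voom in limma 3.58.1, 2 other filters, the replicate number as a block, each replicate left out and transcript lengths. The members, lists and tests were chosen with earlier results of these data known. Named are all members, PELP1, the ligands, INSR and IGF2 mRNA-binding proteins, up to 4 called genes of largest log2FC per list, any called list gene with a log2FC beyond 1, defining markers and the 3 genes most like IGFBP1 and IGFBP3. INS-IGF2, IRS1, IRS2, ITGB1, IGFALS, PAPPA2, C1S, BMP1, POLR2B, other markers and gene neighbors were added after their values were seen.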

Additional observations from a re-analysis of the deposited data

How the results depend on the processing

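The 7 tested members kept the direction of their log2FC under all 13 alternative settings, other than IGF1R and IGF2R, which lie near 0. IGFBP1 stayed between -1.92 and -1.84 and IGFBP3 between -1.60 and -1.52. Without each replicate in turn, the log2FC ranged from -0.19 to -0.15 in IGFBP4, -0.28 to -0.11 in IGFBP6, 0.12 to 0.22 in IGFBP7, -0.032 to 0.047 in IGF1R and -0.006 to 0.042 in IGF2R. With at least 10 counts in every library, which tests fewer genes, 106 genes were lower and 134 higher with a log2FC beyond 1, against 171 and 243. With the longest transcript as the length, the shares of summed RPKM in control and PELP1-KD cells were 2.18% and 0.642% for IGFBP1, 7.24% and 2.66% for IGFBP3, 53.6% and 52.0% for IGFBP4, and 33.1% and 41.0% for IGFBP7. With library totals, 2418 genes were lower and 3817 higher at an adjusted p-value below 0.05, against 3103 and 2904, and in the pathway lists 19 were lower and 21 higher, against 23 and 15. In the other 12 settings the lists held between 19 and 24 lower and between 14 and 17 higher genes. Same-numbered replicates were not paired by any label, and their deviations correlated at 0.039, 0.065 and -0.078. In the fit with a replicate block, 3335 genes were lower and 3140 higher. Of 28 named list genes, 25 kept their side of 0.05 in every setting in which they were tested, and GRB14 had too few counts to be tested under the strictest filter. The counts of IGFBP5 and of the ligands lay under the floor of detection, and IGFBP2 had too few counts to pass the filter on low counts. Without that filter all 9 members were tested, and 4 were called lower and 1 higher, against 19.2% and 18.4% of all tested genes.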

Other observations

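IGFBP1 and IGFBP3 lie side by side on chromosome 7 and IGFBP2 and IGFBP5 side by side on chromosome 2, each pair transcribed toward each other. Both genes of the first pair were expressed and strongly lower in PELP1-KD cells, and both genes of the second pair were at or near the floor of detection. The nearest protein-coding neighbors in GENCODE were looked up after these values were seen. TNS3, a tensin that lies beyond IGFBP3, had 85.9, 90.1 and 83.1 CPM in the control and 68.6, 77.4 and 75.2 CPM in the PELP1-KD replicates, a log2FC of -0.23 (SE 0.05, adjusted p = 8.68e-04 by edgeR). RPL37A, a ribosomal protein gene that lies beyond IGFBP2, had 720 CPM ± 25.9 in control and 702 CPM ± 8.96 in PELP1-KD cells (SD, n = 3) and did not pass the test, with a log2FC of -0.04. IGFBP4 lies between TOP2A, a topoisomerase with a log2FC of -0.15, and TNS4, another tensin, which had 32, 52 and 56 reads in the control and 23, 29 and 26 reads in the PELP1-KD replicates, a log2FC of -1.01 (SE 0.23, adjusted p = 9.94e-04 by edgeR). The other tested neighbors, SPRYD3 beside IGFBP6 and POLR2B beside IGFBP7, did not pass the test, with a log2FC of -0.065 and -0.005. Of all tested genes, 24.2% were called lower.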
